A study of Mus musculus with 12 samples.

Results

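The IL-33, ST2 and IL-4/IL-13 axis was followed through 8 genes chosen by name, Il33, Il1rl1, Il4, Il13, Il4ra, Stat6, Gata3 and Areg. They are 8 of the 734 endogenous genes on a NanoString innate immune panel, an assay that counts colour-coded probes hybridised to unamplified RNA. After a filter on low counts 665 genes were tested, and the 8 were all among them. The libraries came from whole mouse lung, 1 lobe per library, and fall into 3 groups. KO_DRA holds 5 libraries of Chil4-deficient mice given DRA allergens, B6_DRA holds 5 of wild type mice given the same allergens, and B6_PBS holds 2 of wild type mice given PBS. Dosing was intranasal in every group, 2 times per week over 8 weeks. The mice are described as littermates. The labels do not expand DRA, name the deficient mice both as knockdown (KD) and as KO, and give no age. Chil4-deficient mice given PBS were not analysed here, so the allergens and the genotype were compared only along the 3 pairs of groups below, which share libraries with each other.

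IL-33 is an alarmin, a nuclear protein of epithelial and stromal cells that is released on damage. It binds ST2, the product of Il1rl1, on group 2 innate lymphoid cells, Th2 cells, mast cells, basophils and eosinophils, and leads some of them to secrete IL-13, IL-5 and other type 2 cytokines. IL-4 and IL-13 act through receptors that share the chain IL-4Rα (Il4ra) and through the transcription factor STAT6. GATA3 is the transcription factor of Th2 cells and group 2 innate lymphoid cells, and amphiregulin (Areg) is a growth factor of the EGF family that such lymphocytes and epithelium can make.

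Promoter windows of the 8 genes, 250 bases before to 50 after each RefSeq start site in build GRCm38.p6, are shown for the 4 genes whose levels differed most between the groups, because binding motifs of factors of this axis were searched in them. Capitals mark the matches. TTCNNNNGAA and TTCNNNGAA are palindromic STAT motifs, the first of them the form STAT6 favours, AGATAA is a GATA motif and TGACTCA an AP-1 motif; both strands were searched, and no printed match overlaps another. Il33 (chr19:29924863-29925162, plus strand) holds TTCTGGGGAA 36 bases before its first start site. Il1rl1 has AGATAA 217 bases before its first start site (chr1:40429320-40429619, plus strand) and the reverse complement TTATCT 103 bases before its second (chr1:40439379-40439678, plus strand). Il4 (chr11:53618616-53618915, minus strand) holds TTCACAGGAA 167 bases before its second start site. Il13, its neighbour on chromosome 11 (chr11:53634653-53634952, minus strand), holds AGATAA 81 bases before its start.
Il33, first start site: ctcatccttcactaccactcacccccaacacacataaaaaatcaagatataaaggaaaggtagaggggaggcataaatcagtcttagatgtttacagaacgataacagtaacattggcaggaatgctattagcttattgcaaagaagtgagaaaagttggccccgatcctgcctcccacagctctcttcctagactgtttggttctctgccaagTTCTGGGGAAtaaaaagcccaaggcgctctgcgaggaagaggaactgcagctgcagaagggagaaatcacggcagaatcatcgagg
Il1rl1, first start site: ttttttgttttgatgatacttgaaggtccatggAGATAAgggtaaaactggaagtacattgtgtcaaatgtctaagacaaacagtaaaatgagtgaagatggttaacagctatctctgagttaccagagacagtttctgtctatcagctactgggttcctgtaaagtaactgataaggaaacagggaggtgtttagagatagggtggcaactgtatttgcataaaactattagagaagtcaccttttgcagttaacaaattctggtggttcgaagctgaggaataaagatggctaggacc
Il1rl1, second start site: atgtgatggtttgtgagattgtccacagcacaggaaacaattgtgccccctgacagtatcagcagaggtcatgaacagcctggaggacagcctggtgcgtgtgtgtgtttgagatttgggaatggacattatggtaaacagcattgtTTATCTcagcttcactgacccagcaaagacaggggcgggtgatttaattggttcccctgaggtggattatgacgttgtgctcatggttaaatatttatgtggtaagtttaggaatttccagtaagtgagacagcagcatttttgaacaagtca
Il4, second start site: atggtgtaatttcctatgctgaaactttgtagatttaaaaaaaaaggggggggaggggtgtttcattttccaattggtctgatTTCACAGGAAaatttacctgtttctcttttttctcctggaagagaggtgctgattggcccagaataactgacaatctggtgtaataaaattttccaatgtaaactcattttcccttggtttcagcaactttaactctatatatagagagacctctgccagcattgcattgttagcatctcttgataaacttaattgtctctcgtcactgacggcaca
Il13: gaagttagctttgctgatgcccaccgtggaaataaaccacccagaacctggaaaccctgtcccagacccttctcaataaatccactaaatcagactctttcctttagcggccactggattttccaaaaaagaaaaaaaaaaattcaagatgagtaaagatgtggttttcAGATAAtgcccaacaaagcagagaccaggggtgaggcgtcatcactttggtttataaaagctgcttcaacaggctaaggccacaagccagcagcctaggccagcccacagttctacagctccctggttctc

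The 8 genes have 11 windows, and 6 of them, those of Il33 (1 of its start sites), Il1rl1, Il4 and Il13, held a motif. The first window of Il4 held TTCATGGAA, and the windows of Il4ra, Stat6, Gata3 and Areg held none of the 4 motifs. By motif, 2 of the 11 windows held TTCNNNNGAA, 1 TTCNNNGAA, 3 AGATAA and 0 TGACTCA. Among 32851 mouse promoter windows of the same length, 6.95% held TTCNNNNGAA, 8.30% TTCNNNGAA, 11.2% AGATAA and 5.20% TGACTCA. The share of those windows with any of the 4 motifs was not counted. A match describes these letters alone and is no measured binding.

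The libraries held 320290 to 673201 counts. A library's background was set at 2 SD above the average of its 8 negative control probes, 5.58 to 11.7 counts. The probe of the targeted gene, Chil4, gave 111850 counts in the library labelled KO_DRA 8, the highest of the 12 libraries, against 5676 to 24313 in the other KO_DRA libraries, 13020 to 89957 in B6_DRA and 4406 and 5121 in B6_PBS. That signal goes against the label KO_DRA 8 if the probe reads the altered part of the gene. The other KO_DRA libraries also lay above both B6_PBS libraries of wild type mice, so the Chil4 signal does not set the deficient mice apart. Comparisons of KO_DRA are given with and without KO_DRA 8. Its Chil4 signal guided that choice, so results without it are not independent of the choice for genes that move with Chil4. Levels are CPM, counts scaled to library size after TMM correction, and each gene is compared only with itself, since probes differ in efficiency. In whole lung, fewer cells of a type and less RNA per cell cannot be told apart.

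Among the 8 genes, the alarmin, its receptor and IL-13 rose with the allergens in wild type lung, while Il4, the receptor chain, the transcription factors and Areg gave no call. Il33 was 2.54-fold and Il1rl1 3.63-fold higher in B6_DRA than in B6_PBS, and Il13 in B6_DRA averaged 3.31-fold the mean B6_PBS background. In Chil4-deficient lung given the same allergens, Il33 averaged 1950 CPM against 3095 CPM in B6_DRA and Il1rl1 223 CPM against 338 CPM. Neither difference passed the test over all 12 libraries, and that of Il33 passed without the library labelled KO_DRA 8. That library, set apart by its Chil4 signal, was also the highest of KO_DRA in Il33. The call is therefore not independent of leaving it out.

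**Figure D1:**
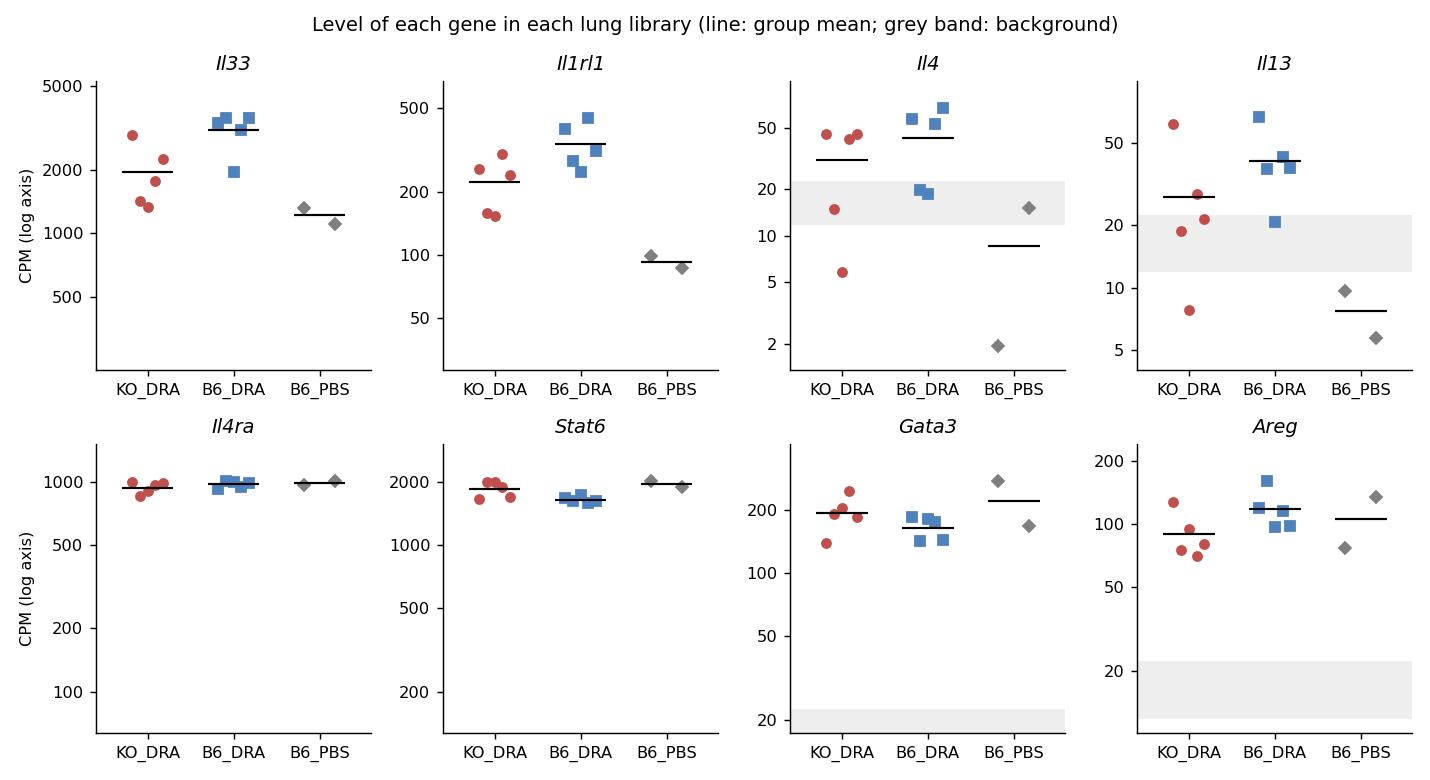
Level of the 8 genes in each library in CPM on log axes; KO_DRA is in red, B6_DRA in blue and B6_PBS in grey, lines are group means and the grey band is the range of background over libraries, 12 to 22.1 CPM. Il33 and Il1rl1 lie above both B6_PBS libraries in all 10 allergen libraries, Il4 and Il13 reach down into the background band, and Il4ra lies between 853 and 1008 CPM in every library.

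Il33 gave 2950, 1431, 1339, 1767 and 2263 CPM in KO_DRA 8 to 12, 3332, 3537, 1964, 3112 and 3533 CPM in B6_DRA 3 to 7, and 1321 and 1111 CPM in B6_PBS 1 and 2. The 5 B6_DRA libraries were all above B6_PBS, 4 of them close together and B6_DRA 5 well below the rest. KO_DRA spread between the other groups: its lowest library was almost at the level of B6_PBS 1, and KO_DRA 12 and the library labelled KO_DRA 8 fell within the range of B6_DRA. The means were 1950 ± 666 CPM in KO_DRA, 3095 ± 656 CPM in B6_DRA (SD, n = 5 each) and 1216 ± 149 CPM in B6_PBS (SD, n = 2). Il33 rose in B6_DRA against B6_PBS by 1.35 on the log2 scale (SE 0.324, edgeR adjusted p = 0.0171).

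Il1rl1, the gene of the IL-33 receptor, gave 258, 159, 153, 304 and 240 CPM in KO_DRA 8 to 12, 399, 279, 247, 449 and 314 CPM in B6_DRA 3 to 7, and 98.5 and 87.2 CPM in B6_PBS 1 and 2. The allergen libraries of both genotypes stood clear of B6_PBS, and KO_DRA and B6_DRA overlapped between 247 and 304 CPM. Raw counts behind these values were 79 to 129 in KO_DRA, 99 to 198 in B6_DRA, and 51 and 46 in B6_PBS. The change in B6_DRA against B6_PBS was 1.86 on the log2 scale (SE 0.329, edgeR adjusted p = 0.00654). Il1rl1 encodes both the membrane receptor and a soluble decoy form, and the sources used here do not give where the probe binds. The forms cannot be told apart.

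Il4 and Il13, the effector cytokines, lay close to the negative controls. Il13 gave 27, 10, 4, 12 and 8 raw counts in KO_DRA 8 to 12, 33, 21, 9, 17 and 12 in B6_DRA 3 to 7, and 5 and 3 in B6_PBS 1 and 2. It exceeded its library's background in 4 of 5 KO_DRA, 5 of 5 B6_DRA and 0 of 2 B6_PBS libraries. The log2 fold change in B6_DRA against B6_PBS was 2.39 (SE 0.745, edgeR adjusted p = 0.0307). Because B6_PBS gave no level above background, the fold stands as a lower bound, the B6_DRA mean of 41.2 CPM over the mean background of the B6_PBS libraries. The adjusted p was 0.055 without B6_DRA 3, 0.0507 without B6_DRA 6 and 0.0506 without B6_DRA 7.

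Il4 gave 20, 8, 3, 18 and 17 counts in KO_DRA 8 to 12, 28, 11, 8, 21 and 21 in B6_DRA 3 to 7, and 1 and 8 in B6_PBS 1 and 2. It was above background in 4 of 5 KO_DRA, 4 of 5 B6_DRA and 1 of 2 B6_PBS libraries, and the B6_PBS pair differed from each other by a larger fold than any pair of B6_DRA libraries. The log2 fold change in B6_DRA against B6_PBS was 2.25 (SE 0.907, edgeR adjusted p = 0.0636). The estimate rests on the B6_PBS pair, being 1.43 (adjusted p = 0.33) without B6_PBS 1 and 4.22 (adjusted p = 0.0948) without B6_PBS 2. The adjusted p was 0.0397 without B6_DRA 5, 0.0229 with DESeq2 and 0.0457 with limma on the authors' scaled values, and above 0.05 under the other alternatives. At such counts the 95% Poisson interval of a single library is wide, 3.45 to 15.8 for the 8 counts of B6_DRA 5, and covers counting error only.

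**Figure D2:**
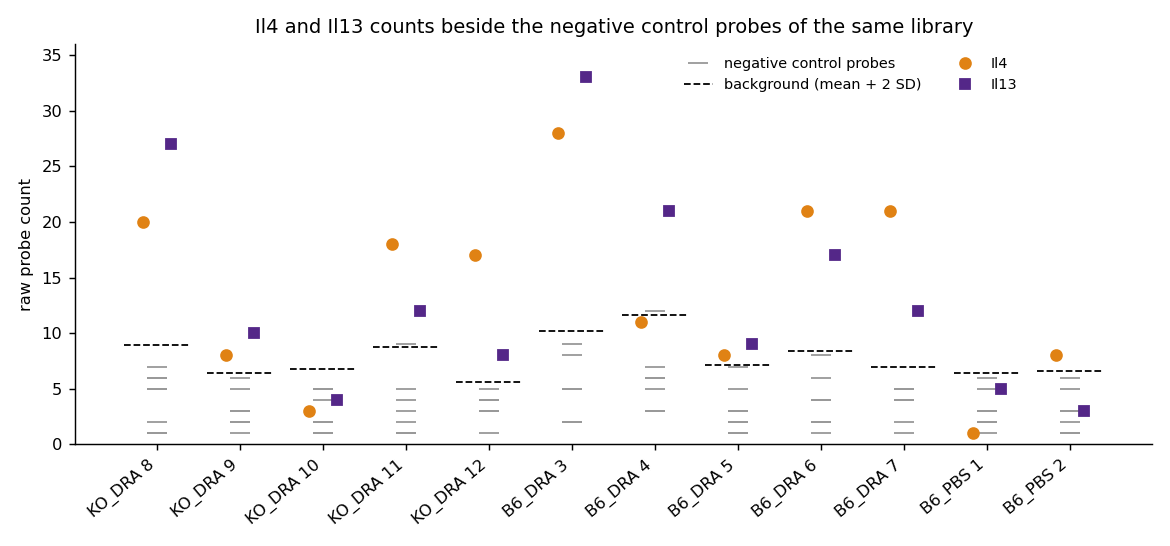
Raw probe counts of Il4 (orange circles) and Il13 (purple squares) in each library, with its 8 negative control probes (grey ticks) and its background of mean plus 2 SD (dashed). Il13 is highest in B6_DRA 3 with 33 counts and in the library labelled KO_DRA 8 with 27, and lies below the dashed line in KO_DRA 10 and in both B6_PBS libraries.

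Il4ra, the receptor chain shared by IL-4 and IL-13, was among the steadiest genes on the panel. It averaged 936 ± 58.5 CPM in KO_DRA, 972 ± 35.3 CPM in B6_DRA (SD, n = 5 each) and 983 ± 27.4 CPM in B6_PBS (SD, n = 2). The groups overlapped, and the SD of its log2 CPM over the 12 libraries, 0.0722, was the 9th smallest of 665 genes. The log2 fold change of B6_DRA against B6_PBS was -0.02 (95% interval -0.19 to 0.16, edgeR adjusted p = 0.894), and its sign turned to 0.06 when libraries were scaled by housekeeping genes and to 0.08 on the authors' scaled values.

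Stat6, the transcription factor below that receptor, averaged 1843 ± 161 CPM in KO_DRA, 1647 ± 58.5 CPM in B6_DRA (SD, n = 5 each) and 1957 ± 95.2 CPM in B6_PBS (SD, n = 2). All 5 B6_DRA libraries, at 1584 to 1733 CPM, were below B6_PBS, at 1890 and 2025 CPM, and KO_DRA covered both ranges with 1653 to 1993 CPM. The log2 fold change of B6_DRA against B6_PBS was -0.25 (SE 0.10, edgeR adjusted p = 0.0636). Its spread was small as well, the 48th smallest of the 665 genes.

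Gata3, the lineage factor of type 2 lymphocytes, gave 139 to 245 CPM in KO_DRA, 141 to 183 CPM in B6_DRA, and 167 and 274 CPM in B6_PBS. The ranges overlapped in all 3 comparisons, and B6_PBS 1 had the highest level of the 12 libraries. Against B6_PBS, B6_DRA had a log2 fold change of -0.42 (SE 0.228, edgeR adjusted p = 0.145). Areg gave 70.8 to 128 CPM in KO_DRA, 97.0 to 161 CPM in B6_DRA, and 77.3 and 135 CPM in B6_PBS. Its log2 fold change of 0.17 in B6_DRA against B6_PBS (SE 0.291, edgeR adjusted p = 0.658) turned to -0.48 when libraries were scaled by their totals alone, where the median of all genes was -0.63, and to -0.20 without B6_PBS 1.

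In B6_DRA against B6_PBS, then, 3 of the 8 genes rose and 0 fell, where 24.1% of the 665 genes rose and 41.8% changed either way. Groups did not overlap for Il33, Il1rl1, Il4 and Il13, which were higher (31.6% of all genes), and for Stat6, which was lower (28.1%). The median log2 fold change was 0.76 over the 8 genes and 0.01 over all genes. Each of the 3 calls rests on both B6_PBS libraries: without either of them 0 of the panel's genes passed by edgeR, with 190 genes at an unadjusted p under 0.05 without B6_PBS 1 and 244 without B6_PBS 2. The estimates stayed above 0: without B6_PBS 1 and without B6_PBS 2 the log2 fold change was 1.46 and 1.196 for Il33, 1.93 and 1.74 for Il1rl1, and 2.79 and 2.04 for Il13. Under scaling by library totals alone, where the median of all genes was -0.63, Il33 stood at 0.67 (edgeR adjusted p = 0.0561), while Stat6, at -0.88 (edgeR adjusted p = 0.0379), and Gata3, at -1.06 (edgeR adjusted p = 0.0355), passed as lower.

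**Figure D3:**
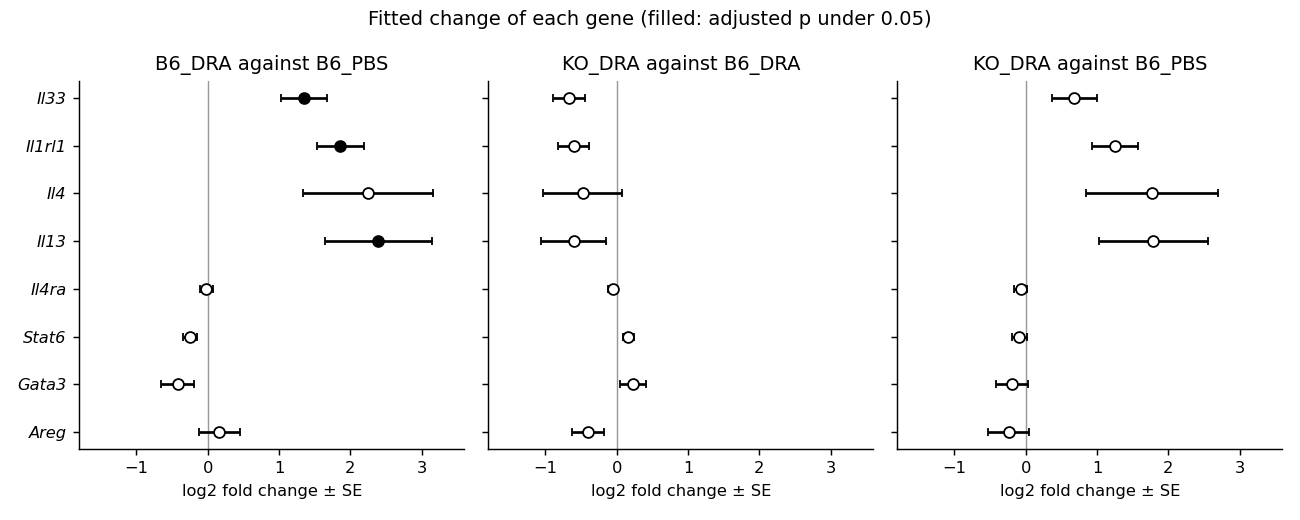
Fitted log2 fold change of the 8 genes with its standard error in B6_DRA against B6_PBS, KO_DRA against B6_DRA and KO_DRA against B6_PBS; filled points passed an adjusted p of 0.05. Filled points are Il33 (1.35), Il1rl1 (1.86) and Il13 (2.39) in the first comparison, and the other panels have none.

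The genotypes were compared under the same allergens. In KO_DRA against B6_DRA 0 of the 8 genes passed, as did 0 of the 665 (0.0%) by edgeR. At an unadjusted p under 0.05 there were 84 genes, 12.6%, among them Il33 and Il1rl1, while DESeq2 called 1 gene of the panel, Ccl24, none of the 8, and limma on the authors' scaled values 0. Il33 had a log2 fold change of -0.67 (SE 0.228, unadjusted p = 0.0131, adjusted p = 0.321) and Il1rl1 of -0.60 (SE 0.221, unadjusted p = 0.0187, adjusted p = 0.321). Il13 stood at -0.60 (SE 0.452, edgeR adjusted p = 0.504), Il4 at -0.48 (SE 0.558, edgeR adjusted p = 0.627) and Areg at -0.41 (SE 0.223, edgeR adjusted p = 0.405). Gata3, at 0.23 (SE 0.178, edgeR adjusted p = 0.511), and Stat6, at 0.16 (SE 0.0766, edgeR adjusted p = 0.378), had estimates above 0, and Il4ra, at -0.06 (SE 0.0671, edgeR adjusted p = 0.641), one below 0 that turned to 0.27 under scaling by library totals, where the median of all genes was 0.34. The groups overlapped for each of the 8 genes, where 1.2% of all genes did not overlap. The median was -0.44 over the 8 genes and 0.01 over all genes.

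The library labelled KO_DRA 8 had the highest KO_DRA level of Il33, Il4, Il13, Il4ra and Areg and the lowest of Stat6 and Gata3. Without it, Il33 fell in KO_DRA against B6_DRA by 0.86 on the log2 scale (SE 0.198, edgeR adjusted p = 0.0344), with 1339 to 2263 CPM in the 4 remaining libraries, of which KO_DRA 12 was still above B6_DRA 5. It was 1 of the 8 genes to pass, where 13.6% of all genes fell and 18.1% changed either way in that fit. The highest and lowest KO_DRA libraries of Il33, KO_DRA 8 and KO_DRA 10, were also those of Chil4. The Il33 call is therefore not independent of the choice to leave KO_DRA 8 out. Among the other genes of the 8, Il13 came to -1.14 (adjusted p = 0.0584), Il1rl1 to -0.66 (adjusted p = 0.0687), Areg to -0.57 (adjusted p = 0.0773) and Stat6 to 0.20 (adjusted p = 0.0781). Areg in these 4 libraries lay below all 5 B6_DRA libraries (2.86% of genes) and Gata3 above them (4.21%), Gata3 with a log2 fold change of 0.33 (adjusted p = 0.175). B6_DRA 5 stood apart within its own group in the opposite sense: it had the lowest Il33, Il1rl1, Il4, Il13 and Areg and the highest Stat6 of the B6_DRA libraries.

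KO_DRA was also set against B6_PBS, a comparison in which genotype and treatment differ together. Here 0 of the 8 genes passed by edgeR, where 3.01% of all genes did, and Il1rl1 and Il13 were among the 28.6% with an unadjusted p under 0.05. Il1rl1 came closest, with a log2 fold change of 1.26 (SE 0.323, edgeR adjusted p = 0.0678). It passed with DESeq2 (adjusted p = 0.00707, where 56 of 665 genes passed) and with limma on the authors' scaled values (adjusted p = 0.0436, 28 of 665). Without KO_DRA 10 it also passed (edgeR adjusted p = 0.0273, 79 of 663). Il33 had a log2 fold change of 0.68 (SE 0.312, edgeR adjusted p = 0.176), and these 2 genes did not overlap with B6_PBS, as 23.0% of all genes did not in that direction. Il13 averaged 2.22-fold the B6_PBS background (log2 fold change 1.79, edgeR adjusted p = 0.164) and Il4 had a log2 fold change of 1.77 (edgeR adjusted p = 0.205). Il4ra, Stat6, Gata3 and Areg were at -0.07, -0.09, -0.19 and -0.24, and the median of the 8 was 0.30 against 0.02 over all genes. Without the library labelled KO_DRA 8, 0 of the 8 passed by edgeR, and Il1rl1 came to 1.196 (adjusted p = 0.112), Il33 to 0.48 (adjusted p = 0.271), Il4 to 1.56 (adjusted p = 0.32) and Il13 to 1.25 (adjusted p = 0.268).

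Ratios within a library need no scaling. The log2 ratio of Il1rl1 to Il33 counts was higher by 0.51 in B6_DRA than in B6_PBS and by 0.59 in KO_DRA than in B6_PBS (exact two-sided permutation p = 0.0952 each, the smallest that 5 against 2 libraries allow; adjusted over 6 ratio tests, 0.143). Between KO_DRA and B6_DRA it differed by 0.08 (exact permutation p = 0.73, adjusted 0.876). The ratio of Il4ra to Stat6 differed by -0.21 on the log2 scale between KO_DRA and B6_DRA (exact permutation p = 0.0873, adjusted 0.143, smallest possible 0.00794). Per library it was 0.599, 0.429, 0.451, 0.507 and 0.579 in KO_DRA 8 to 12, 0.551 to 0.623 in B6_DRA, and 0.476 and 0.531 in B6_PBS. Without the library labelled KO_DRA 8 that difference was -0.27 (exact permutation p = 0.0476, adjusted 0.143), and those of Il1rl1 to Il33 were 0.18 against B6_DRA (exact permutation p = 0.46, adjusted 0.552) and 0.69 against B6_PBS (exact permutation p = 0.133, adjusted 0.20). The ratio of KO_DRA 9 to 11 lay below every B6_DRA library, and KO_DRA 8 and 12 lay within their range.

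**Figure D4:**
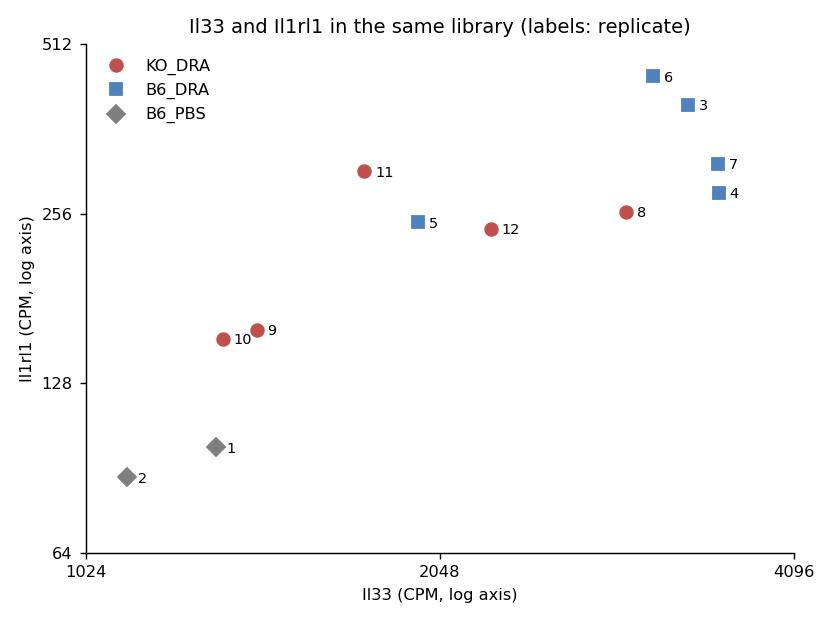
Il33 against Il1rl1 in CPM on log axes, 1 point per library numbered by replicate, KO_DRA as circles, B6_DRA as squares and B6_PBS as diamonds. The B6_PBS libraries are at the lower left, KO_DRA 9 and 10 are next to them, and B6_DRA 3, 4, 6 and 7 are at the right with 3112 to 3537 CPM of Il33.

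Over the 10 allergen libraries Il33 and Il1rl1 correlated in log2 CPM with r = 0.784 (permutation p = 0.0065, adjusted over 3 relations 0.0187) and Spearman's rho = 0.709 (permutation p = 0.0269). The relation rests on KO_DRA 9 and 10, the libraries farthest from the median of Il33: without them r was 0.436 (permutation p = 0.273), and with each group's mean subtracted it was 0.611 (permutation p = 0.0639). Within each group of 5 libraries r was 0.693 in KO_DRA and 0.480 in B6_DRA, and was not tested. Il33 and Areg gave r = 0.726 (permutation p = 0.0187, adjusted 0.0187) and rho = 0.782 (permutation p = 0.0105), and r = 0.779 without the same libraries (permutation p = 0.0229). With group means subtracted r was 0.556 (permutation p = 0.0962), and it was 0.582 within KO_DRA and 0.518 within B6_DRA. Il4ra and Stat6 gave r = -0.731 (permutation p = 0.0158, adjusted 0.0187) and rho = -0.515 (permutation p = 0.133). That relation did not hold without KO_DRA 9 and 10 (r = -0.129), and r was 0.940 under scaling by library totals, which shifts all genes of a library alike. With group means subtracted r was -0.687, and it was -0.875 within KO_DRA but 0.093 within B6_DRA. Without the library labelled KO_DRA 8 the 3 relations had r = 0.808, 0.713 and -0.717 in the order given.

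The genes most like each member in these 10 libraries are given as a description, since the points share scaling and group differences. For Il33 they were Cldn1 (r = 0.961), a tight junction claudin, the monocyte chemokine Ccl2 (0.956) and Cd84 (0.949), with Il1rl1 only in place 118 of 664. For Il1rl1 they were Alox15 (0.933), a lipoxygenase of eosinophils and alternatively activated macrophages, the ribonuclease Rnase2a (0.931) and Man2b1 (0.929), a lysosomal mannosidase. Stat6 was most like Ifngr1 (0.956), the interferon gamma receptor, Nox4 (0.903) and Timp3 (0.897), and its r with Il33, -0.941, was the last of 664 genes. Gata3 was most like Gata6 (0.897), Sp4 (0.893) and Enpep (0.882), Areg most like the chemokine receptors Cxcr1 (0.862) and Ccr4 (0.839) and the ribonuclease Ear6 (0.791), and Il4ra most like Cxcl5 (0.806), Elovl6 (0.795) and Cd276 (0.757). Il4 and Il13 were left out of this step because they were not above background in all 10 libraries.

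Other genes of the pathway were read from lists of textbook members. Of the IL-33 receptor partners and signalling genes, 5 of 13 were measured, and in B6_DRA against B6_PBS 2 fell and 0 rose, where 17.7% of all genes fell. They were Il1rap, the co-receptor of ST2 (log2 fold change -0.31, SE 0.111, edgeR adjusted p = 0.043), and Traf6, an adaptor ligase below it (-0.45, SE 0.147, adjusted p = 0.0338). Neither was called with housekeeping scaling, on the authors' scaled values, or without any 1 of B6_DRA 3, 4, 6 and 7. Fewer genes of the whole panel were called lower in those fits too. Against 118 in the main fit, there were 72 with housekeeping scaling and 61 on the scaled values. Without B6_DRA 3, 4, 6 and 7 in turn there were 36, 58, 49 and 42. Il1rap averaged 258 CPM in KO_DRA, 241 CPM in B6_DRA and 300 CPM in B6_PBS, so receptor and co-receptor had estimates of opposite sign in B6_DRA against B6_PBS. Of the IL-4 and IL-13 receptor partners and signalling genes, 3 of 12 were measured and 0 were called by edgeR or DESeq2, with 1 at an unadjusted p under 0.05. The smallest p were those of Socs1, a feedback inhibitor (log2 fold change 0.53, adjusted p = 0.092), and the kinase Jak3 (0.28, adjusted p = 0.0995).

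Among other type 2 cytokines and receptors, 2 of the 6 on the panel passed the low-count filter and both rose in B6_DRA against B6_PBS, where 24.1% of all genes did. Of the 2, 1 did so under library totals alone or without any 1 of B6_DRA 3, 4, 6 and 7. Over all genes 160 rose, against 57 under library totals and 92, 118, 109 and 94 without those libraries in turn. Il5ra, the IL-5 receptor chain of eosinophils, averaged 4.35-fold the B6_PBS background in B6_DRA (log2 fold change 2.94, SE 0.719, edgeR adjusted p = 0.0171). Csf2, the gene of GM-CSF, rose by 1.36 on the log2 scale (SE 0.492, edgeR adjusted p = 0.0436). Il5, Il9, Il3 and Il25 did not pass the filter. Of the EGF family, to which Areg belongs, 3 of 8 listed genes were measured. In B6_DRA against B6_PBS 2 of them fell, where 17.7% of all genes did. They were Hbegf (log2 fold change -0.65, SE 0.188, edgeR adjusted p = 0.0262) and Tgfa (-0.75, SE 0.232, adjusted p = 0.0305), and Egf was at 0.10 (adjusted p = 0.885). Without B6_DRA 3, 0 of these 3 genes passed, and without B6_DRA 7 there was 1. Over all genes 118 fell, against 36 without B6_DRA 3 and 42 without B6_DRA 7. In KO_DRA against B6_DRA 0 genes of these 4 lists passed by edgeR or DESeq2, and 0 had an unadjusted p under 0.05; without the library labelled KO_DRA 8, Tgfa was higher in KO_DRA and passed, as 4.52% of all genes did in that direction.

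Genes widely used as readouts of IL-4 and IL-13 acting through STAT6 rose in wild type lung given allergens. Of 18 listed, 15 were on the panel and 14 were tested; 11 rose and 0 fell in B6_DRA against B6_PBS, where 24.1% of all genes rose, with a median log2 fold change of 3.37 against 0.01 over all genes. Ccl8, a chemokine, averaged 1075 ± 757 CPM in KO_DRA, 2892 ± 1084 CPM in B6_DRA (SD, n = 5 each) and 89.0 ± 2.54 CPM in B6_PBS (SD, n = 2), and rose by 5.02 on the log2 scale in B6_DRA against B6_PBS (SE 0.813, edgeR adjusted p = 0.00482). The C-type lectin gene Cd209e averaged 7.26-fold the B6_PBS background (edgeR adjusted p = 0.00963). Retnla rose by 5.44 and Alox15 by 4.10 (SE 0.989, edgeR adjusted p = 0.0171). Ccl22, Fcer2a and Tgm2 did not pass. In KO_DRA against B6_DRA 0 of the 14 passed by edgeR, with 6 at an unadjusted p under 0.05, where 12.6% of all genes were. DESeq2 called 1, Ccl24 (log2 fold change -2.40, DESeq2 adjusted p = 0.0356). Of the 14, 13 had edgeR estimates below 0, with a median of -1.10. The smallest edgeR p were those of Cd209e, with 24.1 CPM in KO_DRA and 90.1 CPM in B6_DRA (log2 fold change -1.91, SE 0.484, adjusted p = 0.313), and Ccl24, an eotaxin, with 29.8 CPM and 157 CPM (-2.37, SE 0.627, adjusted p = 0.313). Without the library labelled KO_DRA 8, 11 of the 14 fell, where 13.6% of all genes did. Chil3, 1 of the 14, changed much as Chil4, the gene whose count singled out that library. The log2 fold changes of Chil3 and Chil4 were -0.86 and -0.92 with that library, and -2.26 and -2.27 without it. The 11 calls are therefore not independent of the choice to leave it out. Against B6_PBS, 2 of the 14 passed as higher in KO_DRA, where 3.01% of all genes passed, Retnla (log2 fold change 4.15, SE 0.845) and Ccl8 (3.59, SE 0.757), both with adjusted p = 0.0342. The number called in B6_DRA against B6_PBS was 7 without B6_DRA 6 or B6_DRA 7 and 0 without either B6_PBS library. Over all genes 160 rose in B6_DRA against B6_PBS, against 109 without B6_DRA 6 and 94 without B6_DRA 7. In KO_DRA against B6_PBS the median of the 14 was 2.06, and 1.33 without the library labelled KO_DRA 8, where 2 of the 14 still passed. The number called there was 1 without KO_DRA 9, 0 without KO_DRA 11 or KO_DRA 12, 0 without either B6_PBS library, and 6 with DESeq2. The readouts are known mainly from macrophages, epithelium and B cells.

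**Figure D5:**
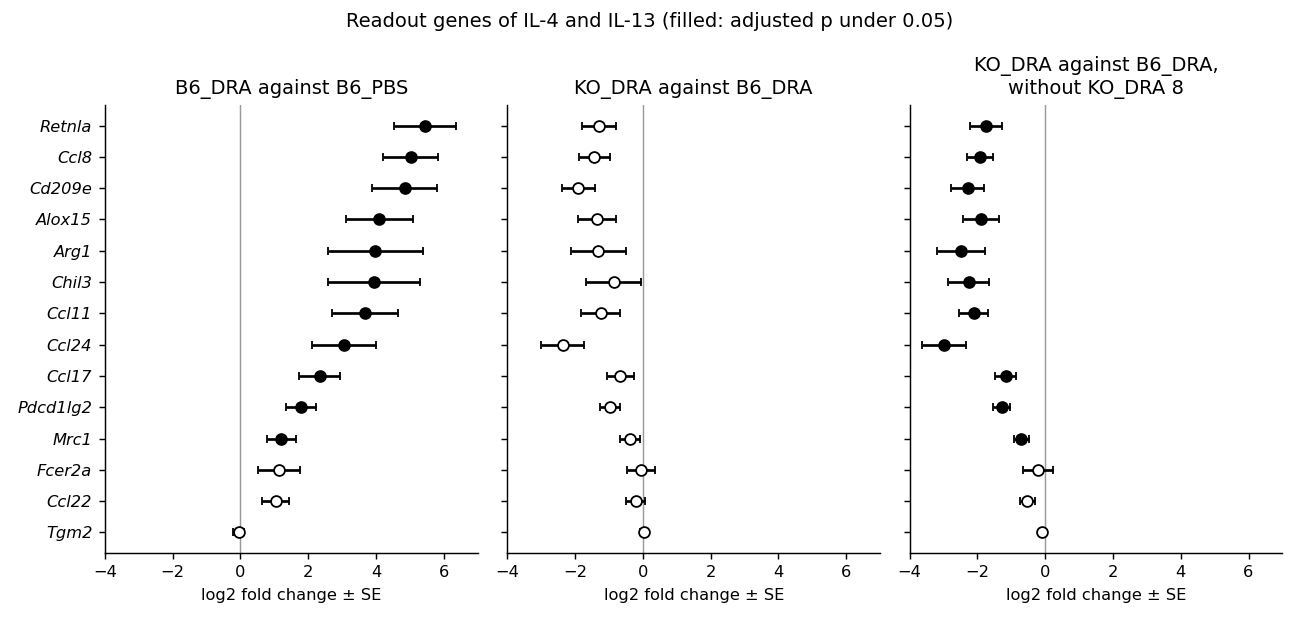
Fitted log2 fold change with its standard error of the 14 readout genes in B6_DRA against B6_PBS, in KO_DRA against B6_DRA, and in KO_DRA against B6_DRA without the library labelled KO_DRA 8; filled points passed an adjusted p of 0.05. The first panel has 11 filled points above 0, the second none, and the third 11 below 0.

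Markers of the cells that carry or feed this axis are given beside these results, and their part in them was not tested. Of 18 markers tested, 9 passed in B6_DRA against B6_PBS by edgeR, where 41.8% of all genes did. In KO_DRA against B6_DRA 0 passed by edgeR or DESeq2, with 4 at an unadjusted edgeR p under 0.05 (12.6% of all genes). In KO_DRA against B6_PBS 0 passed by edgeR, where 3.01% of all genes did, and 4 by DESeq2, which called 56 of 665 genes. There 7 had an unadjusted edgeR p under 0.05 (28.6% of all genes). Of 5 eosinophil markers 4 were tested, and 3 rose in B6_DRA against B6_PBS (24.1% of all genes). Siglecf did not pass (log2 fold change 0.17, edgeR adjusted p = 0.542). The 5 markers summed to 427 to 3331 CPM in KO_DRA, 1508 to 7616 CPM in B6_DRA, and 317 and 320 CPM in B6_PBS. Rnase2a made up much of the mean sum, 683 of 1278 CPM in KO_DRA and 3173 of 4105 CPM in B6_DRA. Which cells made Rnase2a was not tested, so the sum is not a measure of eosinophils alone. Prg2, a granule protein gene, averaged 16.7-fold and Rnase2a 256-fold the B6_PBS background in B6_DRA. Ccr3, an eotaxin receptor, was 10.3-fold higher, and Epx was below background in every library. Without the library labelled KO_DRA 8, 3 genes of the same list passed as lower in KO_DRA than in B6_DRA (13.6% of all genes). These calls, too, were made after that library was left out for its Chil4 signal. Of 4 T cell markers tested 1 rose with the allergens, Icos, by 1.14 on the log2 scale (edgeR adjusted p = 0.0187), a call lost under scaling by library totals; the summed level was 312 to 486 CPM in KO_DRA, 325 to 444 CPM in B6_DRA, and 229 and 263 CPM in B6_PBS. Cd28 averaged 99.6 CPM in KO_DRA, 98.3 CPM in B6_DRA and 57.5 CPM in B6_PBS, and Cd247 118, 107 and 76.6 CPM in the same groups. For group 2 innate lymphoid cells and Th2 cells 1 of 5 markers was measured, Ptgdr2, with 22.8 to 45.0 CPM in KO_DRA, 17.7 to 52.4 CPM in B6_DRA, and 28.4 and 58.0 CPM in B6_PBS.

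Mast cell and basophil markers gave 0 genes higher and 1, Gata2, lower in B6_DRA against B6_PBS. Of 5 tested, 3 had estimates above 0 and 2 below. The Gata2 call was lost without any 1 of B6_DRA 3, 4, 6 and 7, where lower calls over all genes went from 118 to 36, 58, 49 and 42. The list summed to 944 to 1696 CPM in KO_DRA, 1211 to 1636 CPM in B6_DRA, and 1738 and 1891 CPM in B6_PBS. Gata2, Hdc and Kit gave most of it, with means of 954, 542 and 270 CPM in B6_PBS. Cpa3 and Fcer1a were near background, at 21.0 and 17.2 CPM in B6_PBS and 23.7 and 24.0 CPM in B6_DRA. Kit was at 236 CPM in KO_DRA, 206 CPM in B6_DRA and 270 CPM in B6_PBS on average, and Ms4a2, a defining marker, lay near background throughout. Cdh1, the 1 epithelial marker measured of 6, fell in B6_DRA (log2 fold change -0.55, edgeR adjusted p = 0.0188), with 2494 to 3705 CPM in KO_DRA, 2416 to 3012 CPM in B6_DRA, and 3758 and 3913 CPM in B6_PBS. The 3 endothelial markers measured of 5 fell too, where 17.7% of all genes did, with Cdh5 at -0.94, Flt1 at -0.95 and Tek at -0.998, and the list summed to 3313 to 7796 CPM in KO_DRA, 3546 to 6038 CPM in B6_DRA, and 7820 and 9012 CPM in B6_PBS. The count of 3 was 1 without B6_DRA 3, 4 or 7, where lower calls over all genes were 36, 58 and 42 against 118. Epithelium is a known source of IL-33 in mouse lung, and its part in the Il33 levels was not tested. With 1 marker, fewer epithelial cells and less Cdh1 RNA per cell cannot be told apart. Without the library labelled KO_DRA 8, Cdh1, Cdh5 and Tek passed as higher in KO_DRA than in B6_DRA, where 4.52% of all genes did.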

How the data were processed

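Counts per probe from 12 whole-lung libraries were deposited by the authors as whole numbers, for 734 endogenous, 20 housekeeping, 8 negative control and 6 positive control probes, with a lowest value of 1. Housekeeping probes were recognised by their place in the table, where a second alphabetical run of names begins, since no label marks them. A second deposited table holds a signal scaled by the authors, the same counts times 1 factor per library. R 4.2.0, edgeR and limma are listed, with no role, per the submitters' processing notes; the sources used here do not say how background was treated before export. Groups come from the sample names, and the labels give no batch. Libraries held 320290 to 673201 counts.

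Differences were tested on the counts by edgeR 4.0.16 (R 4.3.3), on endogenous and housekeeping probes kept by filterByExpr (minimum count 10, minimum total 15), with TMM factors and a quasi-likelihood fit of 3 group means to the 12 libraries (9 residual degrees of freedom). Tests were two-sided, with Benjamini-Hochberg adjustment over the 665 endogenous genes tested and a threshold of 0.05. Standard errors are log2 fold changes divided by the root of the test's F. Log2 CPM uses a prior count of 2. Where B6_PBS lay below background, a fold is the other group's mean CPM over the mean B6_PBS background in CPM. Log2 ratios of counts were compared by exact permutation of libraries, and correlations by permutation with 100000 resamples. Alternatives were library totals alone, DESeq2 size factors, housekeeping scaling, DESeq2 1.42.0, limma 3.58.1 on log2 of the scaled signal plus 1, no filter, negative controls subtracted, and each library left out. The fit was tested on simulated data.

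The 8 genes and the gene lists were chosen with earlier results of these data known. Named were the 8 genes, up to 4 genes past the threshold from each list or otherwise the 2 with the smallest p, the 3 genes most like each of the 8, and the first 2 measured markers of each cell type; other markers are named where they make up a small count. The labels speak of mice but do not tie each library to 1 animal, so p-values reflect spread among these libraries, which may be technical. Promoter windows are RefSeq's, build GRCm38.p6; the 8 genes matched by symbol.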

Additional observations from a re-analysis of the deposited data

Results flagged for a closer look

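The Il33 level of B6_DRA 5 stood far from the other libraries of its group. Its log2 CPM was 10.94, against 11.61 to 11.79 in B6_DRA 3, 4, 6 and 7, and the gap to the nearest of them was 0.783 of the group's whole range, above Dixon's 95% critical value of 0.71 for 5 samples. Chance flags about 1 in 20 such groups, and 20 groups were looked at, so 1 is about the number chance gives. The same library had the lowest Chil4 count of B6_DRA, 13020.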

How the results depend on the processing

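The number of the 8 genes called in B6_DRA against B6_PBS was 3, and 0 to 4 with 1 library left out, 0 being the value without either B6_PBS library, where the lone library is assumed to vary like the other groups. In KO_DRA against B6_DRA it was 0, and 0 to 1 with 1 library left out, with Il33 called without KO_DRA 8. In KO_DRA against B6_PBS it was 0, 1 with DESeq2, 1 with limma on the scaled signal, and 0 to 1 with 1 library left out, with Il1rl1 called in each case. Over all genes that last comparison called 20 genes, 56 with DESeq2, 4 under library totals alone, 79 without KO_DRA 10, 9 without KO_DRA 8, 2 without KO_DRA 9, and 0 without KO_DRA 11, KO_DRA 12 or either B6_PBS library. In B6_DRA against B6_PBS 160 genes were higher and 118 lower, against 57 and 222 under library totals alone, 163 and 72 with housekeeping scaling and 169 and 61 on the scaled signal. Signs turned for Il4ra (B6_DRA against B6_PBS) to 0.0576 with housekeeping scaling, 0.0761 with limma and 0.0196 with negative controls subtracted. They turned for Il4ra to 0.27 in KO_DRA against B6_DRA under library totals and, in KO_DRA against B6_PBS, to 0.0155 with housekeeping scaling and 0.00125 with limma. Areg (B6_DRA against B6_PBS) turned to -0.48 under library totals. Leaving out 1 library gave -0.0621 to 0.00103 for Il4ra and -0.20 to 0.59 for Areg in B6_DRA against B6_PBS, and -0.53 to 0.20 for Gata3 and -0.60 to 0.19 for Areg in KO_DRA against B6_PBS. It gave -0.0614 to 0.19 for the log2 ratio of Il1rl1 to Il33 in KO_DRA against B6_DRA, and -0.0611 to 0.10 for that of Il4ra to Stat6 in KO_DRA against B6_PBS. The correlation of Il33 with Il1rl1 lost its call under library totals (0.396), without the 2 farthest libraries (0.436) and with group means subtracted (0.611, chosen after seeing the data), and was 0.690 to 0.863 with 1 library left out. That of Il33 with Areg lost its call under library totals (0.332) and with group means subtracted (0.556), and was 0.663 to 0.811 with 1 left out. That of Il4ra with Stat6 was -0.292 on the scaled signal, 0.940 under library totals (a scaling that shifts all genes of a library alike), -0.129 without the 2 farthest libraries and -0.813 to -0.581 with 1 left out. The causes were not tested. No paired analysis was possible because no replicate number occurs in more than 1 group. Signal over background limits Il4 and Il13, which were above background in 9 of 12 libraries each.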
